A study of Mus musculus with 14 samples.

Results

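The genes described here are 10 genes of brown fat thermogenesis, chosen by name, of 21853 genes in the deposited tables: the uncoupling proteins Ucp1 and Ucp3, the respiratory chain subunits Cox7a1 and Cox8b, the fatty acid elongase Elovl3, the deiodinase Dio2, the regulators Prdm16, Ppargc1a and Zic1, and the potassium channel Kcnk3. They were measured by RNA sequencing in the ovary and uterus of 28-week-old female C57BL/6J mice. Old control mice (OC, n = 3) received saline through the tail vein, and old treatment mice (OT, n = 4) received AMSC-CM, the conditioned medium of human amniotic membrane-derived mesenchymal stem cells, mixed from 3 donors. AMSC-CM was given in 6 injections, 4 days apart, at 1 uL per g of body weight, and both groups had been given pregnant mare serum gonadotropin and then human chorionic gonadotropin (10 IU each, 48 hours apart) before treatment. Each mouse gave 1 ovary library and 1 uterus library, which made 14 libraries in 4 groups, and the number after OC or OT names the mouse. The young control mice of the study were not analysed here.

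Brown fat is an adipose tissue that burns fuel to make heat. Noradrenaline from sympathetic nerves acts on beta-3 adrenergic receptors, raises cAMP and releases fatty acids, and these open Ucp1, a proton channel of the inner mitochondrial membrane that lets the proton gradient run down as heat. White adipocytes store lipid and hold little Ucp1, while beige adipocytes are cells within white depots that can switch it on. Neither the ovary nor the uterus is a thermogenic organ, but both lie beside fat in the mouse abdomen.

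Values are FPKM, fragment numbers divided by transcript length and by the mapped fragments of a library, so levels of different genes can be set side by side. The FPKM of a library summed to between 374816 and 577494, with the highest sum in the OT1 uterus, and the depth of each library is unknown. Markers fitted the labelled tissues. The summed FPKM of 7 ovary markers was between 3460 and 4484 in ovaries and between 7.85 and 23.2 in uteruses, and that of 7 uterus markers was between 356 and 597 in uteruses and between 56.2 and 165 in ovaries. The OT1 uterus stood apart from the other 6 uteruses in several of the genes below, so some of the results are also given without it. Values without it are not given for the change of Cox8b between OC and OT uteruses. They are also not given for that change in the related genes and gene lists described beside the thermogenesis genes. A fold change below is the difference of group means of log2(FPKM + 0.1), OT minus OC, tested with limma on genes whose mean over the 7 libraries of a tissue reached 0.5 FPKM. A gene was called when its log2 fold change was 1 or more in either direction and its unadjusted p did not exceed 0.05. At a Benjamini-Hochberg adjusted p under 0.05, limma called 0 genes in either tissue, against 650 ovary genes and 1160 uterus genes at an unadjusted p under 0.05. The p-values measure the spread between these mice, and since the tissues are bulk samples, fewer cells of a type and less RNA per cell cannot be told apart.

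The 250 bases before the start of a gene are shown for 5 of the genes. Those of Ucp1, Cox8b and Cox7a1 are shown because these genes were high together in the OT1 uterus, and those of Ucp3 and Dio2 because these genes were called between OC and OT. The sequences are from RefSeq on GRCm38.p6, written 5' to 3' on the strand of the gene, and 8 of the 10 genes had an entry, with none for Elovl3 and Kcnk3. Capitals mark 4 motifs. TGACGTCA is the full cAMP response element, and its core, TGACG, lies in it on both strands. Nuclear receptors bind the core AGGTCA in their target genes. The last is TATAAA, the TATA box. The windows are Ucp1 at chr8:83290098-83290347 on the plus strand, Cox8b at chr7:140900447-140900696 on the minus strand, Cox7a1 at chr7:30183921-30184170 on the plus strand, Ucp3 at chr7:100472741-100472990 on the plus strand and Dio2 at chr12:90739039-90739288 on the minus strand.
Ucp1: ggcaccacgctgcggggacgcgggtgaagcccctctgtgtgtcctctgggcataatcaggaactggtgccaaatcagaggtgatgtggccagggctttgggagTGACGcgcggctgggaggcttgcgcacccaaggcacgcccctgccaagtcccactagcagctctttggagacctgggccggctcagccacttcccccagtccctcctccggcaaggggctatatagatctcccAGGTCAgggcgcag
Cox8b: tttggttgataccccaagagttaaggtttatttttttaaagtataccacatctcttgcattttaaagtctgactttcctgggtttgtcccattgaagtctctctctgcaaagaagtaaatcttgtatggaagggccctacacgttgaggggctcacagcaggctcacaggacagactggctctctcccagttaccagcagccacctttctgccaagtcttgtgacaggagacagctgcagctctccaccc
Cox7a1: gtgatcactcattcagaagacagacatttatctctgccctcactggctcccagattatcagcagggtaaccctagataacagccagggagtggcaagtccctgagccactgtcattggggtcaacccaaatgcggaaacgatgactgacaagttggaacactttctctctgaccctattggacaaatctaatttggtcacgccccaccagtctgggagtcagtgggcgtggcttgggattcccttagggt
Ucp3: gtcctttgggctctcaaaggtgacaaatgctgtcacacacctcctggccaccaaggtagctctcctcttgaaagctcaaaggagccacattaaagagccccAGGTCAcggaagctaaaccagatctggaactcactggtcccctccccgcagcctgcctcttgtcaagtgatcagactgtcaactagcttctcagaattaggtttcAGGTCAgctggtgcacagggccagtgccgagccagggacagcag
Dio2: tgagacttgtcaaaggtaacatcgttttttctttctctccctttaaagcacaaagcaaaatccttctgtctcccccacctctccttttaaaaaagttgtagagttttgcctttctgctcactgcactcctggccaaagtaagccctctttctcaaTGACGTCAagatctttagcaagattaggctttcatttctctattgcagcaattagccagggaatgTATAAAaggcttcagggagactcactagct

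Searched on both strands, the Ucp1 window held TGACG from position -147 to -143 and AGGTCA from -14 to -9, counted back from the start. The Ucp3 window held AGGTCA at -149 to -144 and again at -44 to -39. The Dio2 window held TGACGTCA at -95 to -88 and TATAAA at -30 to -25, and its start in RefSeq lay 600 bases upstream of the gene start in GENCODE. Of 32851 mouse promoter windows of this length, 17.8% held TGACG, 1.55% held TGACGTCA, 14% held AGGTCA and 12.4% held TATAAA on either strand. AAGGTCA, the form bound by estrogen-related receptors, which contains AGGTCA, was held by 4.08% of windows. The Cox7a1 window held CCAAT at -137 to -133 and at -74 to -70, both on the minus strand, and 33.8% of windows hold it. The Cox8b window held none of these and no GGGCGG, a GC box found in 32.7% of windows. Such matches describe the letters and are no evidence of binding.

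In the uterus, Dio2 was lower in OT than in OC mice, by a log2 fold change of -1.17, and Ucp3, which was at most 0.184 FPKM in OC uteruses, was higher in OT, by 3.74. Both were called by limma, and 2.90% of the 14151 genes tested there were called. The very high values of Ucp1, Cox8b, Cox7a1 and Elovl3 came from the OT1 uterus, and the difference between groups was not called for any of them. In the ovary, 6 of the 10 genes passed the filter and limma called 0 of them, none of which had an unadjusted p under 0.05, against 0.451% of 14415 genes tested. Ucp1, Ucp3 and Elovl3 passed the filter in the uterus through the OT libraries alone, so a count over the genes that passed says nothing about the group as a whole.

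**Figure D1:**
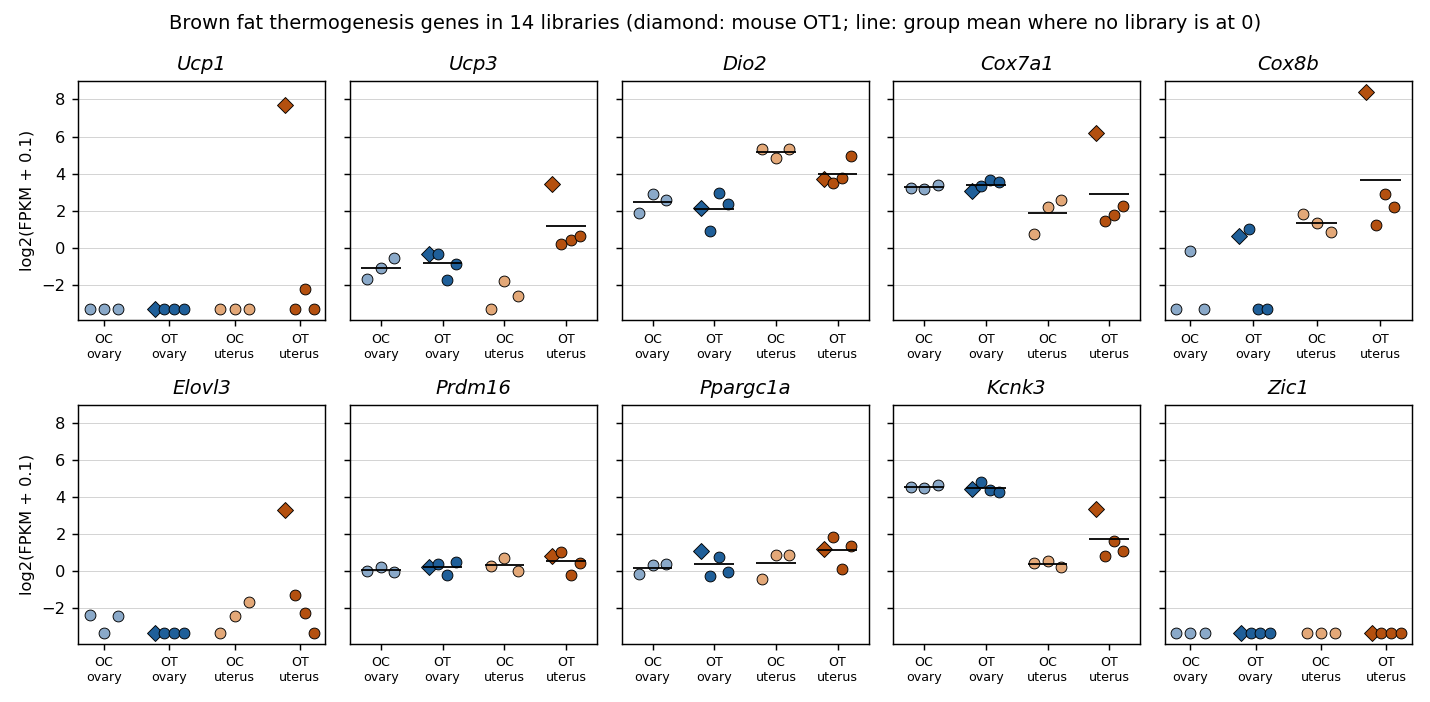
Levels of the 10 thermogenesis genes on a log2(FPKM + 0.1) axis in OC and OT ovaries and uteruses, with 1 point per library, a diamond for mouse OT1 and a line at the group mean where no library was listed at 0. The OT1 uterus lies far above the other points for Ucp1 (210 FPKM), Cox8b (340 FPKM), Cox7a1 (72.9 FPKM) and Elovl3 (9.75 FPKM), while Dio2 is lower and Ucp3 higher in OT than in OC uteruses.

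Ucp1 (ENSMUSG00000031710.4, chr8:83290352-83298452, plus strand, GRCm38), the channel that defines brown and active beige fat, was listed at 0 in all 7 ovaries and in the OC1, OC2 and OC3 uteruses. In the OT1, OT2, OT3 and OT4 uteruses it was listed at 210, 0, 0.112 and 0 FPKM. The OT1 uterus thus held 99.9% of the Ucp1 FPKM of the 14 libraries and ranked Ucp1 at place 354 among its genes. The log2 fold change in the uterus was 3.03 (SE 2.56, unadjusted p = 0.271, adjusted p = 0.690 by limma), and the groups overlapped. Without OT1 the gene did not pass the filter, so no test was possible there.

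Ucp3 (ENSMUSG00000032942.14, chr7:100472990-100486432, plus strand), a mitochondrial carrier of muscle and brown fat linked to fatty acid use, lay at 0, 0.184 and 0.064 FPKM in the OC1, OC2 and OC3 uteruses. The OT1, OT2, OT3 and OT4 uteruses had 10.7, 1.04, 1.25 and 1.42 FPKM, so every OT uterus lay above every OC uterus. This was so for 6.46% of the genes tested in the uterus. The log2 fold change of Ucp3 was 3.74 (SE 0.84, unadjusted p = 0.0021, adjusted p = 0.396 by limma). Without OT1 it was 2.99 (unadjusted p = 0.00132 by limma). An exact permutation test, two-sided, gave Ucp3 p = 0.0571, the smallest that 3 against 4 mice allow, and 0.486 after adjustment over 17 such tests. Ucp3 passed the filter through the OT libraries alone, and with no filter on low values its unadjusted p was 0.00248 by limma. The call was lost with the summed adipocyte genes as a covariate (0.32 on the log2 scale, unadjusted p = 0.725 by limma), a sum that does not overlap between the groups. In ovaries Ucp3 lay between 0.206 and 0.590 FPKM in OC and between 0.201 and 0.699 FPKM in OT, below the filter. The tissue difference, the change in the uterus minus that in the ovary, was 3.44 on the log2 scale (SE 1.00, unadjusted p = 0.00432, adjusted p = 0.844 by limma), and such a difference was called for 1.83% of 14557 genes. Without OT1 it was 2.84 (unadjusted p = 0.00216 by limma).

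Ucp2, the broadly expressed relative of both genes, lay between 80.1 and 91.5 FPKM in OC uteruses and between 74.4 and 95.8 FPKM in the OT2, OT3 and OT4 uteruses. It was lowest in the OT1 uterus at 41.6 FPKM, and its log2 fold change of -0.27 (SE 0.28) was not called. Ucp1 therefore made up 80.1% of the summed FPKM of Ucp1, Ucp2 and Ucp3 in the OT1 uterus, 0.122% in OT3 and 0% in each of the other uteruses. Ucp3 made up 4.08% of that sum in OT1, 1.07% to 1.87% in the other OT uteruses and at most 0.201% in OC uteruses.

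Cox8b (ENSMUSG00000025488.9, chr7:140898945-140900446, minus strand) encodes the heart, muscle and brown fat form of a subunit of cytochrome c oxidase, the last complex of the respiratory chain. It was listed at 3.42, 2.41 and 1.70 FPKM in the OC1, OC2 and OC3 uteruses and at 340, 2.26, 7.26 and 4.40 FPKM in the OT1, OT2, OT3 and OT4 uteruses. The groups overlapped through OT2, and the log2 fold change was 2.34 (SE 1.52, unadjusted p = 0.162 by limma). The OT1 uterus held 93.0% of the Cox8b FPKM of the 14 libraries and ranked Cox8b at place 222 among its genes. In ovaries Cox8b was listed at 0, 0.768 and 0 FPKM in OC1, OC2 and OC3 and at 1.44, 1.91, 0 and 0 FPKM in OT1, OT2, OT3 and OT4, with a log2 fold change of 1.03 (SE 1.35) that was not called.

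Cox7a1 (ENSMUSG00000074218.3, chr7:30184144-30186078, plus strand) encodes the corresponding tissue form of another subunit of that complex. Its uterine values were 1.59, 4.52 and 5.90 FPKM in OC1, OC2 and OC3 and 72.9, 2.65, 3.33 and 4.64 FPKM in OT1, OT2, OT3 and OT4. Outside OT1 the OT values fell within the OC range. The log2 fold change was 1.07 (SE 1.10, unadjusted p = 0.360 by limma), and -0.02 without OT1. Ovaries held 9.56 ± 0.780 FPKM (SD, n = 3) in OC and 10.6 ± 1.79 FPKM (SD, n = 4) in OT.

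The partner forms found in most tissues were present at high levels in every library. Cox8a lay between 272 and 312 FPKM in OC uteruses and between 288 and 793 FPKM in OT uteruses, and Cox7a2 between 122 and 145 FPKM in OC uteruses and between 108 and 308 FPKM in OT uteruses, with the highest value of each in OT1. Neither was called in the uterus, with log2 fold changes of 0.61 (SE 0.31) and 0.30 (SE 0.32). Cox8b made up 30.0% of the Cox8a and Cox8b sum in the OT1 uterus and 0.536% to 1.58% in the other uteruses. Cox7a1 made up 19.2% of the Cox7a1 and Cox7a2 sum in OT1, 1.09% to 4.61% in the other uteruses and 5.54% to 8.19% in ovaries. These shares are levels within a library and carry no test.

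**Figure D2:**
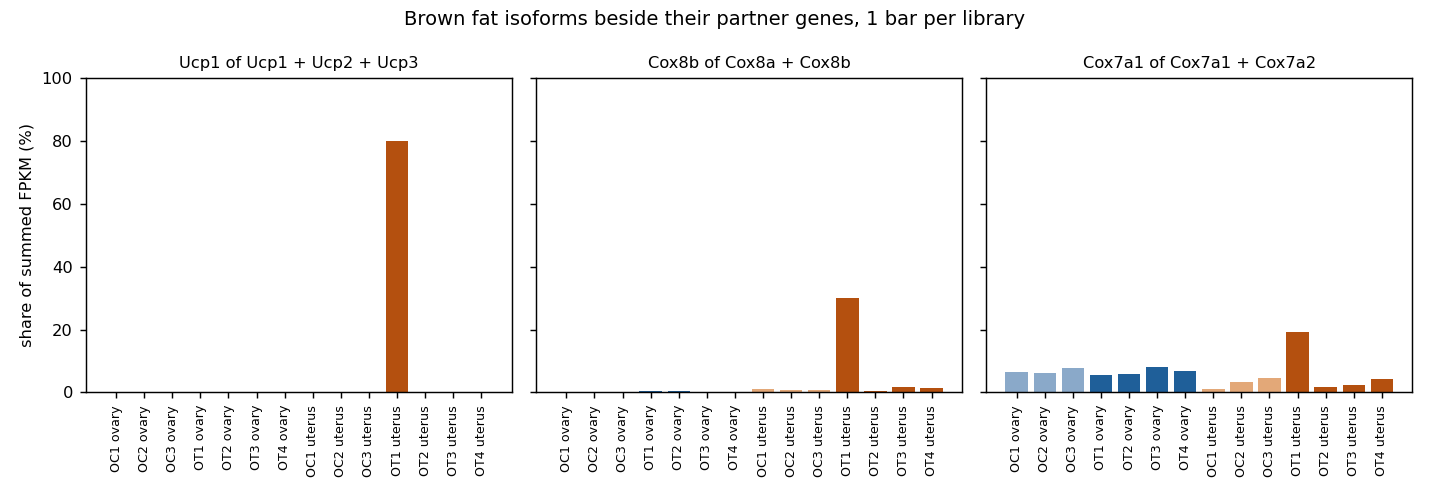
Share in percent of the summed FPKM that the brown fat form takes beside its partner genes, with 1 bar per library, for Ucp1 (left), Cox8b (middle) and Cox7a1 (right). The OT1 uterus reaches 80.1%, 30.0% and 19.2%, and no other library passes 0.122%, 1.58% and 8.19%.

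Elovl3 (ENSMUSG00000038754.5, chr19:46131897-46135694, plus strand), which lengthens saturated and monounsaturated fatty acids and is induced by cold in brown fat, was listed at 0, 0.0853 and 0.215 FPKM in the OC1, OC2 and OC3 uteruses. The OT1, OT2, OT3 and OT4 uteruses had 9.75, 0.315, 0.113 and 0 FPKM, so the OT group lay both above and below the OC values. The log2 fold change was 1.59 (SE 1.503, unadjusted p = 0.320 by limma). In ovaries Elovl3 was listed at 0.0955, 0 and 0.0878 FPKM in OC1, OC2 and OC3 and at 0 in every OT ovary, which is below the filter. Other elongases were present throughout: Elovl6, which makes stearate from palmitate, lay between 6.37 and 8.68 FPKM in OC uteruses, at 56.4 FPKM in the OT1 uterus and between 4.32 and 8.24 FPKM in the remaining OT uteruses.

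Dio2 (ENSMUSG00000007682.6, chr12:90724552-90738438, minus strand) turns the prohormone thyroxine into active T3 inside cells and is induced by cAMP in brown fat. It was the gene of the 10 with the highest level in the OC uterus, at 39.4, 28.6 and 39.5 FPKM in OC1, OC2 and OC3. OT uteruses held 13.1, 11.3, 13.4 and 30.4 FPKM in OT1, OT2, OT3 and OT4. The groups overlapped, since OT4 lay above OC2, while the other OT uteruses lay well below every OC uterus. The log2 fold change was -1.17 (SE 0.33, unadjusted p = 0.00779, adjusted p = 0.503 by limma), and limma called a lower level in OT for 0.664% of genes tested. Leaving out each mouse in turn kept the call, with log2 fold changes between -1.49 without OT4 and -1.02 without OT2. The exact two-sided permutation p was 0.114. The call was also lost with that covariate (-0.69, unadjusted p = 0.311 by limma).

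In ovaries Dio2 lay at 5.56 ± 1.88 FPKM (SD, n = 3) in OC and 4.65 ± 2.39 FPKM (SD, n = 4) in OT, with a log2 fold change of -0.37 (SE 0.45) that was not called. The tissue difference of -0.81 (SE 0.62, unadjusted p = 0.214 by limma) was not called, so the change in the uterus was not shown to differ from that in the ovary. Dio3, which inactivates thyroid hormones, lay between 11.5 and 26.9 FPKM in OC uteruses and between 4.08 and 31.5 FPKM in OT uteruses, with no call. Dio2 made up 59.4% to 71.3% of the summed FPKM of Dio1, Dio2 and Dio3 in OC uteruses. The OT1, OT2, OT3 and OT4 uteruses had shares of 29.4%, 72.1%, 36.1% and 58.1%.

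Prdm16 and Ppargc1a showed no called difference between OC and OT in either tissue. Prdm16 (ENSMUSG00000039410.16, chr4:154316125-154636873, minus strand), a cofactor that directs cells to the brown fat fate, lay at 1.21 ± 0.334 FPKM (SD, n = 3) in OC uteruses and 1.42 ± 0.521 FPKM (SD, n = 4) in OT uteruses, with 1.71 FPKM in OT1 below the 1.96 FPKM of OT2. Ppargc1a (ENSMUSG00000029167.13, chr5:51454250-51567726, minus strand), a coactivator of mitochondrial biogenesis, lay at 1.37 ± 0.619 FPKM (SD, n = 3) in OC uteruses and 2.31 ± 1.05 FPKM (SD, n = 4) in OT uteruses, again with OT2 highest at 3.57 FPKM. Log2 fold changes were 0.18 (SE 0.38) for Prdm16 and 0.70 (SE 0.49) for Ppargc1a in the uterus and 0.16 (SE 0.27) and 0.21 (SE 0.38) in the ovary. Ppargc1a shares its strand with the annotated genes Gm42614, Gm42615 and Gm43605, so reads could be split among them. Its relative Ppargc1b was called in the uterus with a log2 fold change of 1.02 (SE 0.39, unadjusted p = 0.0298, adjusted p = 0.570 by limma). Zic1 (ENSMUSG00000032368.14, chr9:91358058-91365810, minus strand), a zinc finger factor that marks the classical interscapular brown depot, was listed at 0 in all 14 libraries, the OT1 uterus included.

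Kcnk3 (ENSMUSG00000049265.7, chr5:30588170-30625271, plus strand), the potassium channel TASK1, is a marker of brown fat that sets membrane potential and is also found in other organs. In the uterus it lay at 1.26, 1.40 and 1.08 FPKM in OC1, OC2 and OC3 and at 10.2, 1.67, 2.99 and 2.04 FPKM in OT1, OT2, OT3 and OT4. Every OT uterus lay above every OC uterus, as for Ucp3, yet the log2 fold change of 1.30 (SE 0.57, unadjusted p = 0.0510, adjusted p = 0.599 by limma) missed the call. The exact two-sided permutation p was 0.0571, and 0.486 after adjustment over the 17 tests. Leaving out OT1 gave a log2 fold change of 0.76 (unadjusted p = 0.0339 by limma), below the fold set for a call. Kcnk3 was called under 6 of 18 alternatives, with unadjusted p-values from limma between 0.0104, for all 14 libraries in 1 fit, and 0.0495, for scaling to the 75th percentile. The others were a pseudocount of 0.01, a replicate block without OT4, and leaving out OT2 (1.60) or OT4 (1.51). That block joins OC and OT mice that share only a number, so nothing is read from its call. With the adipocyte covariate it was -1.005 (unadjusted p = 0.133 by limma).

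Ovaries held far more Kcnk3, at 23.7 ± 1.54 FPKM (SD, n = 3) in OC and 22.6 ± 4.03 FPKM (SD, n = 4) in OT, with a log2 fold change of -0.08 (SE 0.13). The tissue difference was called at 1.39 (SE 0.62, unadjusted p = 0.0427, adjusted p = 0.844 by limma). That call was lost without OC1 (difference 1.41), OC2 (1.503), OC3 (1.24) or OT3 (1.39), with unadjusted p-values from limma between 0.0730 and 0.129. Without OT1 the difference was 0.84 (unadjusted p = 0.0156 by limma), below the fold set for a call.

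**Figure D3:**
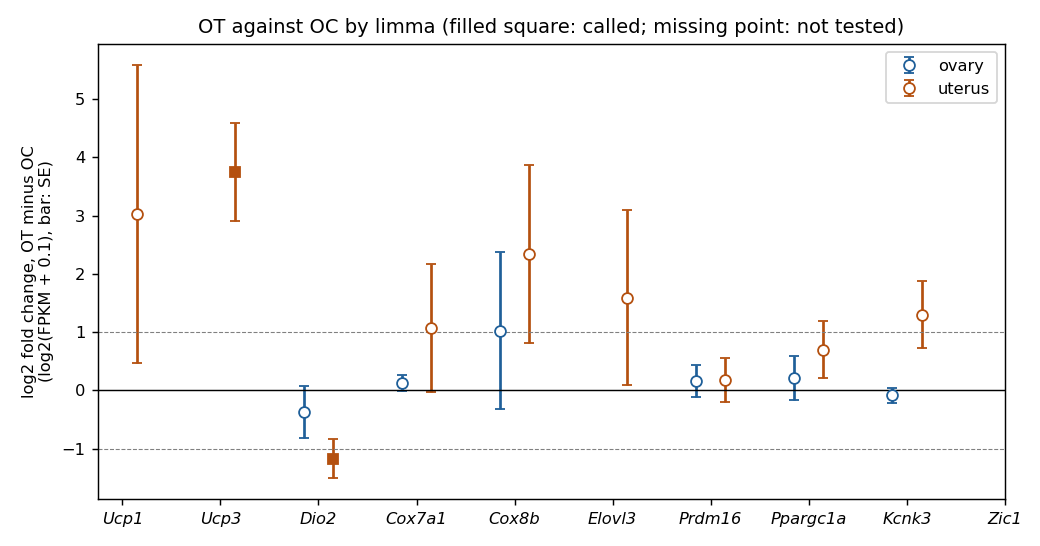
Log2 fold change of OT against OC on the log2(FPKM + 0.1) scale with its standard error from limma, for each thermogenesis gene in the ovary (blue) and the uterus (orange). Filled squares mark the called genes, Ucp3 (3.74) and Dio2 (-1.17) in the uterus, dashed lines stand at 1 and -1, and a gene with no point was not tested in that tissue.

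The levels in saline-treated mice were also compared between the tissues. In the fit of all 14 libraries, OC uteruses exceeded OC ovaries in Dio2, with 35.8 ± 6.27 FPKM against 5.56 ± 1.88 FPKM (SD, n = 3 each), a log2 difference of 2.71 (SE 0.47, adjusted p = 0.000623 by limma). Kcnk3 was lower in the uterus, with 1.25 ± 0.159 FPKM against 23.7 ± 1.54 FPKM (SD, n = 3 each), a log2 difference of -4.15 (SE 0.47, adjusted p = 2.09e-05 by limma). These were the called genes of the 9 tested, against 19.9% of 14557 genes. Cox8b (3.61, SE 1.68, unadjusted p = 0.0508 by limma), Ucp3 (-1.46, SE 0.76) and Cox7a1 (-1.42, SE 0.92) had OC groups that did not overlap between the tissues and were not called. With the mouse as a replicate block Cox8b was called (3.61, unadjusted p = 0.0425 by limma), and Ucp3 (0.0637) and Cox7a1 (0.137) were not. Without OT1, which enters this fit through the estimate of spread, the called genes rose to 5 of 7 tested, with Cox8b (unadjusted p = 0.00800 by limma), Cox7a1 (0.00287) and Ucp3 (0.0147) added. The 19.9% above belongs to the fit with OT1 and is no background for this count. The rise is therefore not read as a result about these genes.

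The OT1 uterus was singled out for its values of the thermogenesis genes, which were chosen with earlier results of these data known. The shares of all genes given here therefore describe that library and test nothing. The OT1 uterus was the highest of the 7 uteruses for 6 of the 10 genes, against 31.0% of the genes tested in the uterus. For 5 of them, Ucp1, Ucp3, Cox7a1, Cox8b and Elovl3, it reached at least 5 times the highest other uterus, against 0.587% of genes. At least 90% of the FPKM of the 14 libraries lay in the OT1 uterus for Ucp1, Cox8b and Elovl3 (91.4%), against 0.0707% of genes, 10 in number. Named after their values were seen, those 10 genes also included the urothelial plaque proteins Upk3a (48.7 FPKM in OT1) and Upk2 (16.2 FPKM), the surface protein Psca (32.1 FPKM), the glycogen synthase Gys2 (9.92 FPKM) and the keratinocyte envelope protein Ivl (9.18 FPKM). The ovary of mouse OT1 showed no such values, with Ucp1 and Elovl3 at 0, Cox8b at 1.44 FPKM and Cox7a1 at 8.38 FPKM, the lowest of the 7 ovaries. A further gene set the OT1 mouse apart in both tissues. Fos, an immediate early gene, lay at 45.7 FPKM in its ovary and 47.3 FPKM in its uterus and at most at 12.7 FPKM in the other 12 libraries. The part of urothelial RNA or of immediate early genes in the thermogenesis values was not tested.

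The remaining brown fat programme was followed in 5 lists of 70 genes, also chosen with earlier results of these data known. In the OT1 uterus, the list of fuel and mitochondrial genes stood out in the same way, with OT1 highest for 16 of its 19 genes and at least 5 times the highest other uterus for 8. This was not particular to brown fat genes. For a list of 15 white or common adipocyte genes, described below, OT1 was highest for 15 and at least 5 times the highest other uterus for 5. Named after their values were seen, Cidea, a lipid droplet protein of brown fat, lay at 70.5 FPKM in OT1 and at most at 0.518 FPKM in the other uteruses. Otop1, a proton channel, lay at 9.71 against at most 0.248 FPKM, the carnitine palmitoyltransferase Cpt1b at 25.8 against at most 2.78 FPKM, and the lipid droplet protein Plin5 at 7.11 against at most 0.460 FPKM. OT1 was highest for 9 of 18 transcription factors and 6 of 16 genes of thermogenic input, which covers adrenergic, cAMP and thyroid signalling, and reached 5 times the highest other uterus for 2 genes of each. OT1 was highest for 4 of 10 genes of UCP1-independent heat (creatine and calcium cycling) and 2 of 7 beige adipocyte markers, and reached 5 times the highest other uterus for 0 of either. Of the genes tested in the uterus, OT1 was highest for 31.0% and reached 5 times the highest other uterus for 0.587%. How often OT1 was highest among thermogenic input, UCP1-independent heat and beige genes lay near that share.

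**Figure D4:**
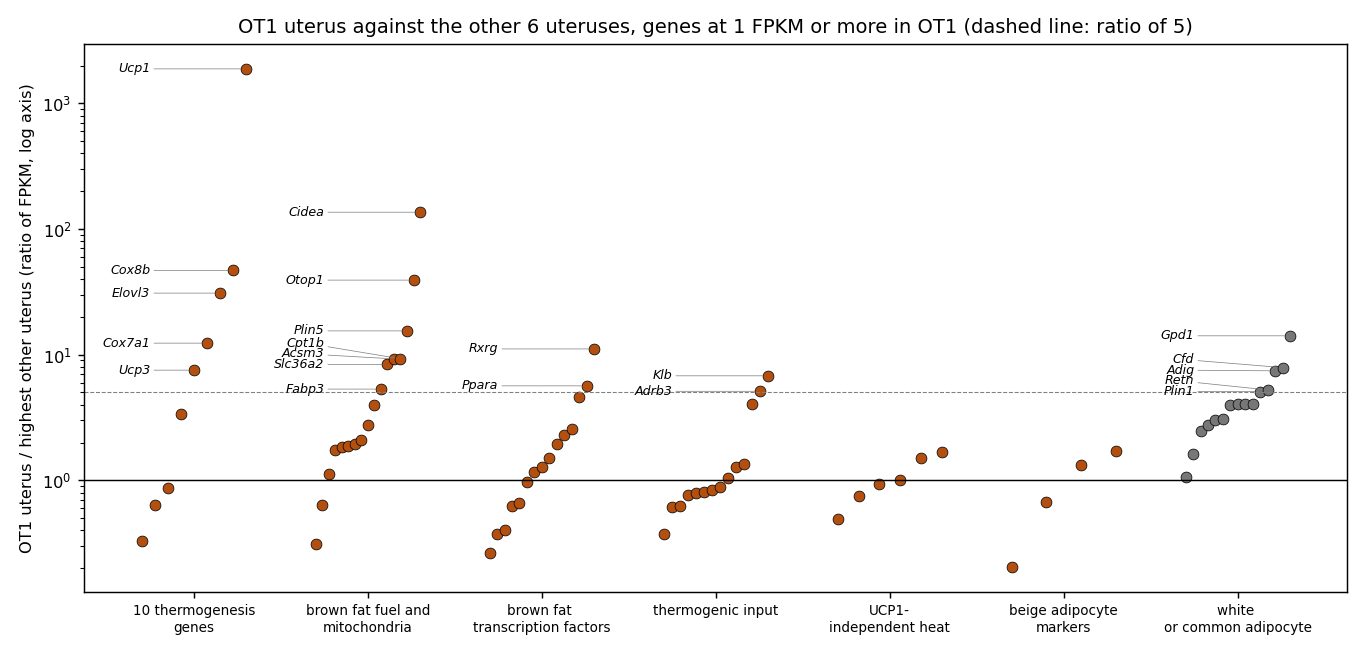
Ratio of the FPKM in the OT1 uterus to the highest FPKM among the other 6 uteruses (log axis), with 1 point per gene at 1 FPKM or more in OT1, by gene list. Ucp1, Cox8b, Elovl3, Cox7a1 and Ucp3 lie above the dashed line at a ratio of 5, beside Cidea and Otop1 of the fuel and mitochondria list, and no gene of UCP1-independent heat or of the beige markers does. Of the 15 white or common adipocyte genes, 5 lie above it.

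Between OC and OT, limma called 9 of the 60 programme genes tested in the uterus, all higher in OT, where 2.23% of all tested genes were called higher. The median log2 fold change of the 60 was 0.42, against 0.01 over all genes tested. Some of the 60 passed the filter through the OT libraries alone, Klb and Esrrg among the called, and with no filter on low values 9 programme genes were called. The lists were chosen with earlier results known, and the study had reported Adrb3 and Klb as higher in OT in both tissues. The count and the median are therefore no independent evidence. The called genes with the largest change were Adrb3, the beta-3 adrenergic receptor (4.04, SE 0.79, unadjusted p = 0.000865, adjusted p = 0.357 by limma), and Klb, the coreceptor of the hormone FGF21 (3.86, SE 0.88). They were followed by the amino acid transporter Slc36a2 (3.62, SE 1.03), the acyl-CoA synthetase Acsm3 (2.98, SE 1.00), the adipocyte factor Pparg (2.40, SE 0.62) and the protein kinase A subunit Prkar2b (1.99, SE 0.73). Adrb3 was at 1.31, 2.03 and 0.823 FPKM in OC1, OC2 and OC3 uteruses and at 110, 12.7, 21.6 and 9.12 FPKM in OT1, OT2, OT3 and OT4, with no overlap. By list, 2 of 17 fuel and mitochondrial genes, 4 of 16 transcription factors and 3 of 15 genes of thermogenic input were called, against 0 of 7 genes of UCP1-independent heat and 0 of 5 beige markers. In the ovary limma called 1 of 58 programme genes, Adrb3 (2.03, SE 0.70, unadjusted p = 0.0190, adjusted p = 0.997 by limma), with 0.368% of genes called higher. That count was 0 without OT2 and 2 without OT3.

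Markers of adipocytes moved with these genes. All 15 genes of a white or common adipocyte list were called higher in OT uteruses, with a median log2 fold change of 3.65. In OT ovaries 6 of the 15 were, with a median of 1.22. Of all genes tested, 2.23% in the uterus and 0.368% in the ovary were called higher. The list was chosen with earlier results known, and the study had reported Adipoq, Plin1, Fabp4 and others of it as higher in OT. These counts are therefore no independent evidence. None of the 15 was listed at 0 in all libraries of a tissue. Their summed FPKM was 176, 478 and 446 in the OC1, OC2 and OC3 uteruses and 17983, 2091, 3885 and 2190 in the OT1, OT2, OT3 and OT4 uteruses. It ranged from 359 to 520 in OC ovaries and from 423 to 2874 in OT ovaries. The OT1 uterus thus had the highest adipocyte sum as well as the highest level of 6 of the thermogenesis genes, and the part of adipocyte RNA in their values was not tested. The sum does not overlap between OC and OT uteruses and is extreme in OT1, so a fit with it as a covariate extrapolates, and no direction is read from the covariate values.

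Set against 1000 FPKM of that adipocyte sum, the genes fell into different patterns. Ucp1 stood at 11.7 in the OT1 uterus, 0.0287 in OT3 and 0 in the others. Cox7a1 stood at 4.05 in OT1 and between 0.857 and 2.12 in the other OT uteruses, but between 9.07 and 13.2 in OC uteruses. Cox8b stood at 18.9 in OT1, between 1.08 and 2.01 in the other OT uteruses, and at 19.5, 5.04 and 3.81 in OC1, OC2 and OC3. Ucp3 stood between 0.321 and 0.648 in the 4 OT uteruses and Kcnk3 between 0.565 and 0.929, with OT1 inside or below the range of the others. In OC uteruses the same ratio was at most 0.385 for Ucp3 and between 2.43 and 7.16 for Kcnk3. The ovaries of OT1 and OT2 had adipocyte sums of 2874 and 2100 FPKM, against 2091 to 3885 FPKM in the OT2, OT3 and OT4 uteruses, and listed Ucp1 at 0.

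**Figure D5:**
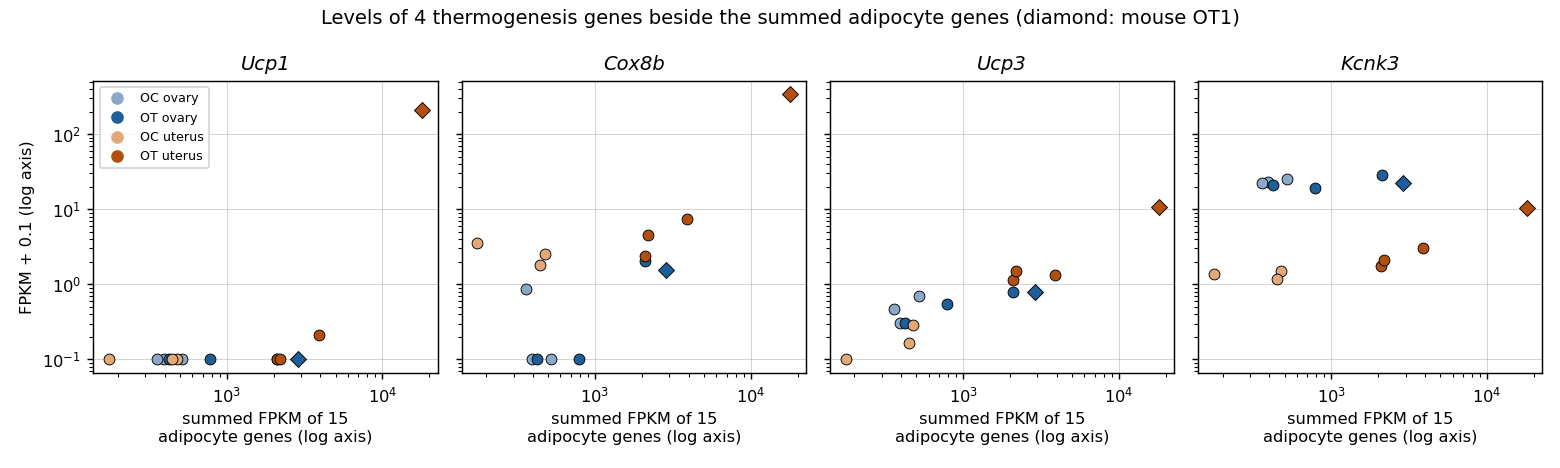
FPKM + 0.1 of Ucp1, Cox8b, Ucp3 and Kcnk3 (log axis) against the summed FPKM of 15 adipocyte genes (log axis), with 1 point per library coloured by group and a diamond for mouse OT1. The OT1 uterus lies farthest right at 17983 FPKM and highest for Ucp1, Cox8b and Ucp3, whereas Kcnk3 is highest in ovaries.

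Markers of other cells were read in the same libraries. Skeletal muscle also uses Ucp3, Cox7a1 and Cox8b, and of its 17 markers only Myh4 was listed at 0 in all 7 uteruses. Its myosins Myh1, Myh2 and Myh7 were near 0 there, at most at 0.0316, 0.0307 and 0.0176 FPKM, and Ryr1 at most at 0.147 FPKM. Acta1 (60.1 to 139 FPKM) and Tnni2 (19.0 to 43.8 FPKM) had the highest levels of the list. The summed FPKM of 17 skeletal muscle genes was between 92.3 and 146 in OC uteruses and between 110 and 204 in OT uteruses, and 1 of the 10 tested was called. That gene, named after its values were seen, was the myosin light chain Myl1, which passed the filter through the OT libraries, with a log2 fold change of 2.95 (SE 0.80, unadjusted p = 0.00620 by limma), 12.5 FPKM in the OT1 uterus and at most 2.31 FPKM in the others. OT1 was the highest uterus for 8 of the 17 and at least 5 times the highest other uterus for 2, against 31.0% and 0.587% of genes tested in the uterus. The heart myosin Myh6 was listed at 1.87 FPKM in the OT1 uterus and at 0 in the other 6. The heart markers had 0 of 3 called, smooth muscle 0 of 8, mesothelium 0 of 4 and endothelium 0 of 5. Their sums were not all level. Smooth muscle summed to 7947 to 9345 FPKM in OC and 9792 to 14812 FPKM in OT uteruses, without overlap. Mesothelium summed to 74.6 to 79.7 FPKM in OC uteruses and to 157, 173, 70.8 and 64.9 FPKM in OT1, OT2, OT3 and OT4. The heart and endothelium sums overlapped between the groups. Of 5 sympathetic nerve genes, Th alone was listed at 0 in all 7 uteruses, the noradrenaline transporter gene Slc6a2 lay between 1.77 and 7.74 FPKM, and 0 of the 2 tested were called. B and plasma cell genes were higher in OT uteruses (5 of 7 called, summed FPKM of 7.64 to 10.98 in OC and 16.7 to 119 in OT). The 119 FPKM was the OT2 uterus, against 42.6, 17.5 and 16.7 FPKM in OT1, OT3 and OT4. Stratified epithelium genes were higher too (6 of 7 called, 2.72 to 13.1 in OC and 43.7 to 774 in OT). Beside the counts of called markers given here, 2.90% of all genes tested in the uterus were called. Uterus markers were called for 0 of 7 genes. Their summed FPKM was lower in OT without overlap, at 548 to 597 in OC and 356 to 500 in OT uteruses. Ovary markers were called for 1 of 5 (lower in OT), with sums of 19.7 to 23.2 in OC and 7.85 to 18.9 in OT. Immediate early genes were called for 0 of 5. The part of these cells in the thermogenesis values was not tested.

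The genes most like each of the leading members were taken by Pearson's r of log2(FPKM + 0.1) over the 7 uteruses, as a description without a test, since the points share the OT1 library at their far end. For Ucp1 these were Mrps34 (r = 0.996), Immt, Sdha, Atg5 and Uck1, of which Immt shapes mitochondrial cristae and Sdha is a subunit of complex II. For Ucp3 they were Pnpla3 (r = 0.994), Acp5, Lctl, A530016L24Rik and Klb, and for Kcnk3 they were Srebf1 (r = 0.996), Nabp1, Acad11, Slc25a39 and Pde3b. For Dio2, which was not extreme in OT1, they were Zfp653 (r = 0.980), Aff3, Rgs17, Plekhg1 and Meaf6.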

How the data were processed

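Stranded total RNA libraries, depleted of rRNA, were made from the ovary and uterus of 3 OC and 4 OT mice, and each library took its group and number from its label. The deposited FPKM per gene were made by the authors, who trimmed reads with Skewer 0.2.2, mapped them to mm10 with STAR 2.5 and quantified them with Cufflinks 2.2.1. Whether the values were further scaled between libraries is not given in the sources used here. An FPKM removes sequencing depth, which leaves library depth unknown, and no counting interval could be given. The tables hold 3380 genes listed at 0 in all 14 libraries, and 9 genes with a median of at least 10 FPKM were listed at 0 in at least 1 library, so a 0 is given as listed. All 21853 identifiers matched GENCODE M21 on GRCm38, which gave symbols and positions. The authors' differential test (Cuffdiff) needs reads and was not run.

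The FPKM were not rescaled. In each tissue, log2(FPKM + 0.1) of the genes whose mean reached 0.5 FPKM was fitted by lmFit and trended eBayes of limma 3.58.1 (R 4.3.3). A call needed a log2 fold change of 1 or more in either direction and an unadjusted p not above 0.05, and Benjamini-Hochberg adjustment ran over all tested genes. This scale understates the change of low genes. Tissues were compared in a fit of all 14 libraries without a term for the mouse, and the mouse was added as a replicate block (duplicateCorrelation) as an alternative. Exact two-sided permutation tests ran over the 35 splits of 3 against 4 mice. Python 3.11.15 with numpy 2.4.6 and pandas 2.3.3 served the other steps, and matplotlib 3.10.9 drew the figures. On simulated data in which 200 genes had a log2 fold change of 2, limma recovered 97.4% of them in the ovary (14431 genes) and 96.4% in the uterus (14138 genes). These shares do not carry over to genes with a wide spread, such as Cox8b in the uterus (2.34, SE 1.52, not called). A gene that was not called is therefore not shown to be unchanged.

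The 10 genes and all gene lists were chosen with earlier results of these data known. The genes named were the 10 genes, their partner forms, up to 6 called genes per tissue with the largest change from the 5 programme lists, and the 5 genes most like each leading gene. Those for Cox8b are not reported here. Genes named after their values were seen are marked as such. Deviations of the ovary and uterus of 1 mouse from their group means correlated between 0.074 and 0.254 (mean 0.141). For different mice they correlated between -0.235 and 0.248 (mean -0.054). The ranges overlap, so these values do not establish the pairing, which rests on the labels. As alternatives, the pseudocount, the filter and the scaling were varied, with robust eBayes, a replicate block, a single fit of both tissues, an adipocyte covariate, the exact test and each mouse left out in turn. Within 1 tissue the replicate block joined same-numbered OC and OT libraries, which come from different mice.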

Additional observations from a re-analysis of the deposited data

Results flagged for a closer look

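Of 16 sets of 4 OT libraries, 1 for each thermogenesis gene with values above 0 in a tissue, 3 had a library far from the other 3 by Dixon's criterion, and chance gives such a library in about 1 in 20 sets. All 3 were the OT1 uterus, with Ucp1 at 209.9 FPKM, Cox7a1 at 72.9 FPKM and Ucp3 at 10.7 FPKM. The 3 sets share that library and are not independent. For Ucp3 and Kcnk3 the OT against OC difference was called larger in the uterus than in the ovary, by 3.44 and 1.39 on the log2 scale (unadjusted p = 0.00432 and 0.0427, adjusted p = 0.844 for both by limma). Neither call held after adjustment. Ucp3 passed the filter through the OT uteruses and was below it in ovaries. The Kcnk3 call was lost without OC1, OC2, OC3 or OT3, and without OT1 its difference was below the fold set for a call.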

How the results depend on the processing

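For single thermogenesis genes, 472 of 515 values under an alternative kept their direction and side of the cutoffs, 15 passed them, 10 no longer did and 18 changed sign. A gene that was not called and stayed so counts as kept. The exact permutation test cannot go below p = 0.0571, so its entries were fixed in advance, kept for uncalled genes and lost for called ones. The 472 is therefore no measure of how firm the calls are. Of all genes called in the ovary (65), 18 were called with a pseudocount of 1, 159 with no filter, 42 with a mean of at least 1 FPKM and 105 with a replicate block without OT4, and leaving out a mouse gave 51 to 137, the most without OT3. In the uterus (410) a pseudocount of 1 gave 259 and the replicate block 666, and leaving out a mouse 295 to 605. Same-numbered OC and OT libraries correlated at 0.022 to 0.335 in the ovary and -0.011 to 0.076 in the uterus and share only a number. For the tissue difference (267), a pseudocount of 1 gave 134, no filter 438 and leaving out a mouse 214 to 378. Of the 10 genes, the tissue difference was called for 1 in place of 2 with a pseudocount of 1 and for 1 to 2 when a mouse was left out. OC uteruses and ovaries differed in 4 in place of 2 with a pseudocount of 0.01 and in 2 to 5 when a mouse was left out. Programme genes called in the ovary (1) numbered 2 under the replicate block, 0 with the adipocyte covariate and 0 to 2 without a mouse. With the adipocyte covariate, the sign changed in the ovary for Dio2 (0.31), Cox8b (-1.31) and Prdm16 (-0.0311), and in the uterus for Ucp1 (-7.47), Cox7a1 (-3.79), Cox8b (-3.82), Elovl3 (-4.07) and Kcnk3 (-1.005); the covariate does not overlap between OC and OT uteruses, so no direction is read from these fits. With the mouse as a replicate block the tissue difference was called for 297 genes and OC uteruses and ovaries differed in 2915, and of the thermogenesis genes only Cox8b between OC tissues changed its call (3.61). Leaving out a mouse gave ovary Dio2 -0.65 to 0.0349 (highest without OT2), ovary Ppargc1a -0.0230 (without OT1) to 0.44 and uterus Cox7a1 -0.0232 (without OT1) to 1.55. In the tissue difference it gave Cox7a1 -0.26 (without OT1) to 1.40 and Prdm16 -0.10 to 0.15, below 0 without OC3, OT1 or OT2, and Prdm16 was -0.0102 with scaling to the 75th percentile. Elovl3 between OC tissues ranged from -0.11 to 0.82, below 0 without OC2 or OC3. The cause of these changes was not tested. Without OT1, Ucp1 and Elovl3 fell under the filter in the uterus and gave no value. No depth is known, so values near 0 cannot be told from undetected expression.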
